A study of Homo sapiens with 5 samples.

Results

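The genes described here steer a B cell between the germinal centre and the plasma cell, or mark its arrival there: PRDM1, IRF4, BCL6, XBP1, CD38, SDC1 and ELL2. They were chosen by name, and all 7 have a probe set with a single gene symbol on the array, out of 7713 genes measured in this way. Each has 1 such probe set, so no choice between probe sets was needed. Their expression was compared in KM-H2, an established Hodgkin lymphoma line of B-cell origin, written KMH2 in the labels. The cells had been cultured in RPMI1640 with fetal calf serum and antibiotics, with 30 uM LY294002 for 16 hours (2 arrays) or with the solvent DMSO for 16 hours (3 arrays). LY294002 is a small-molecule inhibitor of phosphoinositide 3-kinase (PI3K) that also binds other proteins. All arrays come from this single line, and the labels do not say whether replicates were separate cultures, so the p-values rest on a spread between arrays that may be technical only.

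In a germinal centre B cell, the BTB zinc finger protein BCL6 represses the genes of differentiation, among them PRDM1. PRDM1 encodes BLIMP-1, which in turn silences BCL6 and B-cell identity genes such as PAX5, and IRF4 acts upstream, at high levels inducing PRDM1 and repressing BCL6. XBP1 then expands the secretory apparatus, ELL2 favours the secreted form of immunoglobulin RNA, and CD38 and SDC1 (CD138) appear at the surface. Hodgkin cells derive from germinal centre B cells that lost much of their B-cell programme, and they commonly express IRF4. PI3K signalling restrains FOXO factors, which take part in the control of B-cell genes.

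The sequence just upstream of the start of the 3 regulators and of XBP1 is shown because these are the genes whose own control is best known in this circuit. The letters are from RefSeq (GRCh38.p14), 250 bases before the start, 5′ to 3′ on the strand of the gene. Of the 7 genes, 6 matched the promoter table, with 10 starts between them. The first listed start is shown where a gene has several (2 each for PRDM1, BCL6 and XBP1, and 1 for IRF4). Capitals mark matches, on either strand, to the motifs named after the sequences. The first is at chr6:391502-391751 on the plus strand, the next at chr6:106086086-106086335 on the plus strand, the third at chr3:187745469-187745718 on the minus strand and the last at chr22:28800570-28800819 on the minus strand.
IRF4: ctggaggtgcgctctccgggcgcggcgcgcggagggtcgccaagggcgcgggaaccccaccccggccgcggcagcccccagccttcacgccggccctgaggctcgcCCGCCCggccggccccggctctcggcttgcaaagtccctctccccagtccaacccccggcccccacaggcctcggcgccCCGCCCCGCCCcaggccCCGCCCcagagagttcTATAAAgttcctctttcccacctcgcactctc
PRDM1: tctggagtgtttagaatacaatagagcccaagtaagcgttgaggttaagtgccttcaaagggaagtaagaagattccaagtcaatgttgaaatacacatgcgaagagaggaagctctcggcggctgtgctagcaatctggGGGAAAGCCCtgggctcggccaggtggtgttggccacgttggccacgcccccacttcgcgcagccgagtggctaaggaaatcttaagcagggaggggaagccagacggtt
BCL6: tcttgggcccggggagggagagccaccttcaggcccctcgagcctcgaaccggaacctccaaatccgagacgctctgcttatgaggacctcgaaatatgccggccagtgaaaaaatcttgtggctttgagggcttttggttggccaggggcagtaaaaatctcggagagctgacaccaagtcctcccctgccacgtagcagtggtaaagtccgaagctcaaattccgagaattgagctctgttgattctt
XBP1: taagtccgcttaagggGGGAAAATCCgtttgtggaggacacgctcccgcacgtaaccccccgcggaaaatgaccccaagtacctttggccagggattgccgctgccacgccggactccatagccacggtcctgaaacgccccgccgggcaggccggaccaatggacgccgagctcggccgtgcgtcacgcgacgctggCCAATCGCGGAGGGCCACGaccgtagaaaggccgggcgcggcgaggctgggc

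The motifs searched were TTCCTAGAA (BCL6), AGNGAAAG (BLIMP-1), GAAANNGAA (IRF factors), GTAAACA (FOXO), GGGCGG (GC box), TATAAA (the core element called TATA box) and TGACGTGG (unfolded protein response element), and the NF-kB motif and the ER stress element. The AGNGAAAG and GAAANNGAA patterns can overlap each other, as can neighbouring GC boxes. The window of IRF4 held 4 GC boxes and a TATA box at -32 to -27, counted from the start. GC boxes were found in 45.0% of all 35116 windows of 300 bases (250 before and 50 after a start), and TATA boxes in 11.5%. The PRDM1 window shown held 1 NF-kB match, GGGAAAGCCC, a pattern present in 6.90% of windows. In XBP1 the ER stress element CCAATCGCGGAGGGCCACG lay at -52 to -34, and 0.0769% of windows hold that pattern; an NF-kB match, GGGAAAATCC, lay further upstream. The 250 bases before the BCL6 start held no match to any motif searched. Just after that start, at 37 to 45, lies a match to the motif of BCL6 itself, found in 0.373% of windows. It is shown because BCL6 is known to repress its own gene from this part of the transcribed region (chr3:187745419-187745446, minus strand, capitals marking the match).
BCL6 site: gtgatgcaagaagtTTCTAGGAAaggcc
In the 10 windows of these genes the IRF pattern had 1 match, GAAACAGAA at -17 to -9 of CD38, and the FOXO and BLIMP-1 patterns had none. The IRF pattern occurs in 8.11% of all windows, that of FOXO in 3.42% and that of BLIMP-1 in 7.99%. These matches describe letters and were not tested for binding.

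IRF4 rose with LY294002, and the 2 other regulators, BCL6 and PRDM1, were higher on both treated arrays without passing the test. XBP1, CD38, SDC1 and ELL2 had differences between group means of -0.09 to -0.0045 on the log2 scale, and none of these 4 passed. Of the 7 genes, 1 rose and 0 fell at an adjusted p under 0.05 (limma, Benjamini-Hochberg over 8746 probe sets); over all genes the share called was 0.609% higher, 0.298% lower and 0.908% in all. Both treated arrays lay above all DMSO arrays for 3 of the 7 genes and below them for 0, against 16.2% and 13.4% of all genes (29.6% together). At an unadjusted p under 0.05 there were 3 of the 7, against 17.1% of all genes. The median log2 change was -0.0045 over the 7 genes and -0.01 over all genes.

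**Figure D1:**
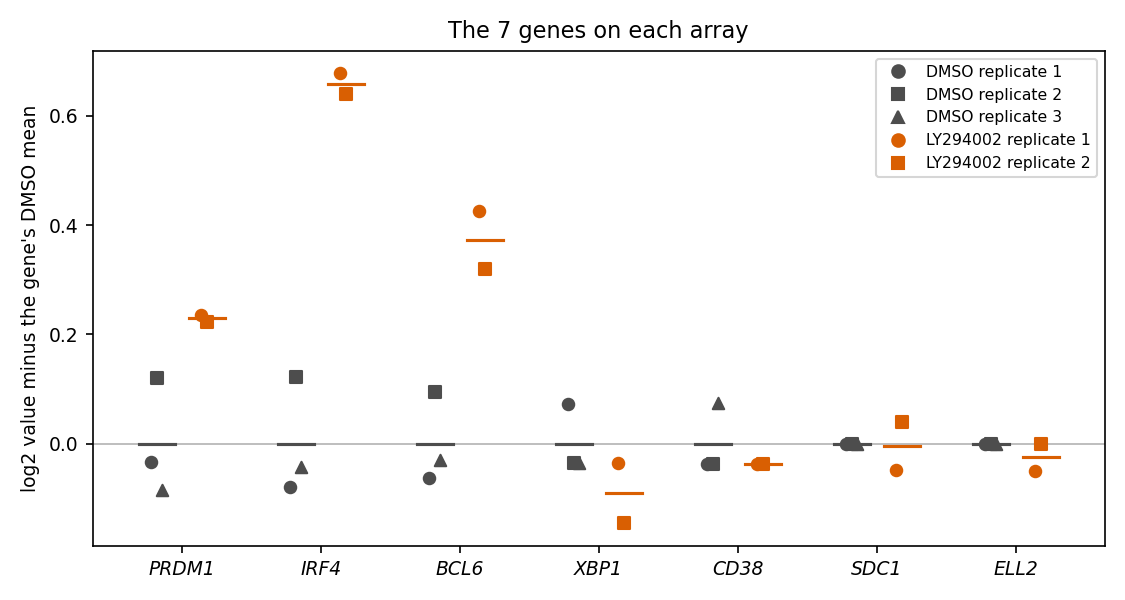
Log2 value of each gene on each array, minus the mean of its 3 DMSO arrays; grey points are DMSO arrays, orange points LY294002 arrays, and bars the group means. IRF4, BCL6 and PRDM1 have both treated arrays above every DMSO array, while the points of XBP1, CD38, SDC1 and ELL2 overlap or coincide.

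IRF4 is an interferon regulatory factor that B cells need for both class switching and plasma cell formation. Its log2 probe set value was 8.15, 8.35 and 8.18 on DMSO replicates 1, 2 and 3, and 8.90 and 8.87 on LY294002 replicates 1 and 2. The groups did not overlap, and the treated arrays lay close together. The mean went from 8.23 ± 0.11 (SD, n = 3) to 8.89 ± 0.03 (SD, n = 2), a rise of 0.66 ± 0.07 (standard error of the limma fit), or 1.58-fold, with an adjusted p of 0.0473 and a 95% interval of 0.47 to 0.85. It ranked 92 of 7713 genes by log2 change from the top, and 65 by p. The adjusted p lies just under the threshold, and the call was lost in each of the 5 fits that leave out 1 array: the change was then 0.62 to 0.72, with limma adjusted p-values of 0.0875 to 0.215. It was also lost with array weights (0.64, limma adjusted p = 0.108).

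BCL6, the repressor that holds cells in the germinal centre programme, stood at 6.36, 6.51 and 6.39 on the DMSO arrays and at 6.84 and 6.74 on the LY294002 arrays. The lower treated array exceeded the highest DMSO array by more than the DMSO arrays differed among themselves. The means were 6.42 ± 0.08 (SD, n = 3) and 6.79 ± 0.07 (SD, n = 2). The difference was 0.37 ± 0.06, or 1.29-fold, with a limma adjusted p of 0.0886 and an interval of 0.20 to 0.55. BCL6 therefore did not pass, but it did after quantile normalization (0.35, limma adjusted p = 0.0443) and when probe sets with identical values within a group were left out of the fit (0.37, limma adjusted p = 0.0233).

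PRDM1 had values of 7.30, 7.46 and 7.25 with DMSO and of 7.57 and 7.56 with LY294002. The treated arrays were nearly equal, and DMSO replicate 2 lay closer to them than to DMSO replicate 3. From a mean of 7.34 ± 0.11 (SD, n = 3) to one of 7.57 ± 0.0096 (SD, n = 2), the difference was 0.23 ± 0.07, or 1.17-fold, with a limma adjusted p of 0.217 and an interval of 0.04 to 0.41. PRDM1 did not pass under any of the alternatives tried, where its limma adjusted p ran from 0.111 to 0.535.

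**Figure D2:**
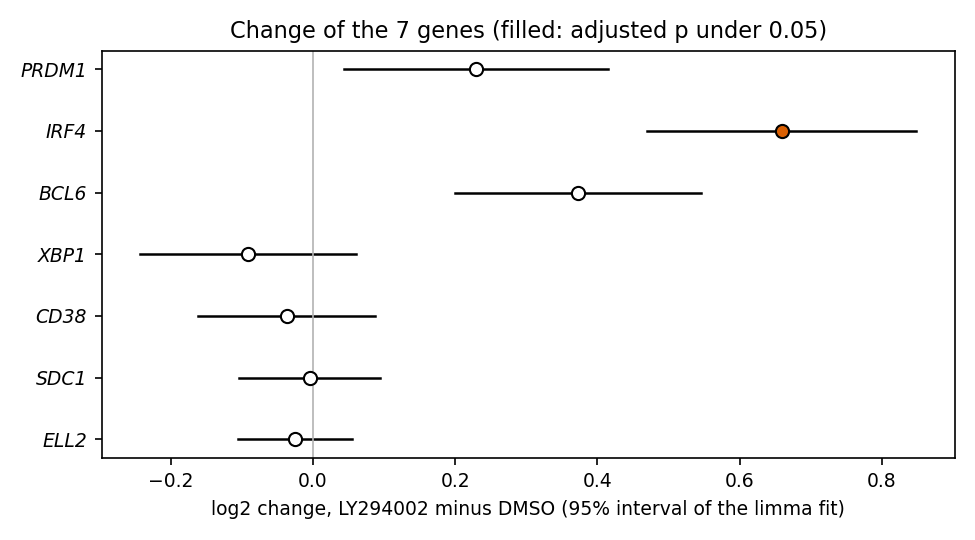
Log2 change of each gene, LY294002 minus DMSO, with the 95% interval of the limma fit (3 DMSO and 2 LY294002 arrays); the filled point passed an adjusted p of 0.05. The interval of IRF4 runs from 0.47 to 0.85, and those of XBP1, CD38, SDC1 and ELL2 include 0.

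XBP1, the factor that drives the secretory expansion of plasma cells, read 7.05, 6.94 and 6.94 on the DMSO arrays and 6.94 and 6.83 on the LY294002 arrays. LY294002 replicate 1 had the same value as DMSO replicates 2 and 3. The difference was -0.09 ± 0.06, with a limma adjusted p of 0.451 and an interval of -0.24 to 0.06. The XBP1 protein is active when the RNA has been spliced by IRE1, and the single value of this probe set does not give the spliced and unspliced forms separately.

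The surface enzyme CD38, which degrades NAD, read 6.73 on 4 of the 5 arrays and 6.84 on DMSO replicate 3. Its difference of -0.04 ± 0.05 (limma adjusted p = 0.672, interval -0.16 to 0.09) thus comes from that 1 array, and was 0 without it. SDC1, the heparan sulfate proteoglycan used to stain plasma cells, read 4.52 on all 3 DMSO arrays, and 4.48 and 4.56 on LY294002 replicates 1 and 2. It differed by -0.0045 ± 0.04 (limma adjusted p = 0.96, interval -0.10 to 0.09). SDC1 was among the dim probe sets, at percentile 8.71 of the mean values of all probe sets, where a fall would be hard to see.

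ELL2, an elongation factor of RNA polymerase II, read 6.46 on the 3 DMSO arrays and LY294002 replicate 2, and 6.41 on LY294002 replicate 1. The difference was -0.02 ± 0.03 (limma adjusted p = 0.657, interval -0.10 to 0.05). The intervals of these 4 genes leave room for changes of up to 0.24 downward (XBP1) and 0.09 upward (CD38 and SDC1) on the log2 scale. Whether XBP1, CD38, SDC1 and ELL2 are expressed in this line cannot be read from these probe sets alone. Exact repeats of a value on different arrays are common in this table: 4942 of 8746 probe sets (56.5%) had at least 1. XBP1, CD38, SDC1 and ELL2 had repeats within a group, and IRF4, BCL6 and PRDM1 had 5 different values each. How the repeats arose is not given in the sources used here, and a standard error built on repeated values can be too small.

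Since IRF4, BCL6 and PRDM1 were higher together, their values were also compared with each other on the same array. Probe sets differ in affinity, so only the change of such a difference is read. IRF4 minus BCL6 was 1.79, 1.84 and 1.80 on the DMSO arrays and 2.06 and 2.13 on the LY294002 arrays, a change of 0.29. IRF4 minus PRDM1 was 0.84, 0.89 and 0.93 against 1.33 and 1.31, a change of 0.43. In both cases the treated arrays lay clear of the DMSO arrays, so that the value of IRF4 stood higher relative to either of the others. The IRF4 probe set was the brightest of the 3 (DMSO mean 8.23, against 7.34 for PRDM1 and 6.42 for BCL6). Whether the RNA amounts shifted in the same way was not tested.

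PRDM1 minus BCL6 was 0.95, 0.94 and 0.86 on the DMSO arrays, and 0.73 and 0.82 on the LY294002 arrays. It changed by -0.14. On both treated arrays the PRDM1 value was lower relative to that of BCL6 than on any DMSO array. The margin was of the order of the spread between arrays. For each of the 3 pairs the exact two-sided permutation test over the arrays gave p = 0.2 (0.2 after adjustment over the 3 pairs), the smallest value that 10 splits of 5 arrays allow, so this test cannot reach 0.05. The SD of IRF4 minus BCL6 over the DMSO arrays was 0.02, less than those of IRF4 (0.11) and BCL6 (0.08) alone. All 3 regulators had their highest DMSO value on replicate 2.

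**Figure D3:**
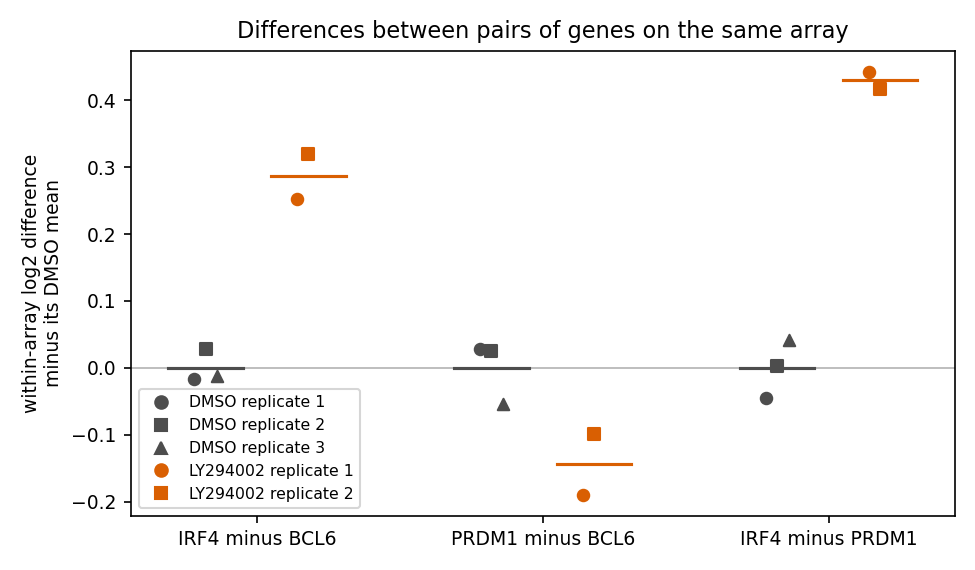
Difference between the log2 values of 2 genes on the same array, minus its mean over the DMSO arrays; symbols as in the plot of the genes by array, bars show group means. IRF4 minus BCL6 and IRF4 minus PRDM1 were higher by 0.29 and 0.43, and PRDM1 minus BCL6 was lower by 0.14 on the LY294002 arrays.

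The genes with the most similar profile were found by the root mean square difference of the 5 centred log2 values, over 5 arrays. For IRF4 these were IL15, a cytokine gene (0.03), GRSF1, an RNA-binding protein of mitochondria (0.03), and RAPGEF1, a guanine nucleotide exchange factor (0.04). For BCL6 they were the autophagy receptor gene TAX1BP1 (0.0080), TSC2, a brake on mTOR (0.01), and the bromodomain gene BRD7 (0.02). TP53BP2, a p53-binding protein (0.01), ZNF207, a zinc finger protein of the spindle (0.02), and the tetraspanin TSPAN3 (0.02) came closest to PRDM1. Their log2 changes lay near those of the gene they resemble: 0.61 to 0.65 for the neighbours of IRF4, 0.33 to 0.37 for those of BCL6 and 0.21 to 0.24 for those of PRDM1. The 5 arrays fall into 2 groups, and that change is part of what the profiles share.

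Around the 7 genes, other genes of the same circuit were read from lists chosen by function, with earlier results of these data known. A call in these lists is therefore not an independent finding. Among 21 other genes of plasma cells, limma called 0, and 7 had an unadjusted p under 0.05 (2 higher, 5 lower). Over all genes the share at that unadjusted threshold was 17.1%, to be set beside each such count below. The median log2 change of the plasma cell list was -0.05. PIM2, a survival kinase of plasma cells, was 0.66 ± 0.08 higher, with values of 7.96, 7.98 and 7.86 against 8.70 and 8.48 (limma adjusted p = 0.0539). FKBP11, a prolyl isomerase of secretory cells, differed by -0.64 ± 0.20 (limma adjusted p = 0.224). The receptor of plasma cell survival TNFRSF17 (BCMA), chosen after its values were seen, differed by -0.52 ± 0.15 (limma adjusted p = 0.211).

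The secretory genes that XBP1 and its relatives drive had 0 calls by limma among 22, with 7 at an unadjusted p under 0.05 (2 higher, 5 lower) and a median of -0.06. SDF2L1, a partner of ER chaperones, differed by -0.35 ± 0.09 (limma adjusted p = 0.17), and SRPRB, a subunit of the signal recognition particle receptor, by -0.26 ± 0.06 (limma adjusted p = 0.147). Among 10 sensors and factors of the unfolded protein response, limma called 0, with 3 unadjusted, and the median was 0.04. PPP1R15A, which restores translation after stress, was 0.45 ± 0.08 higher (limma adjusted p = 0.0995) and BAX, a pore-forming protein of the BCL2 family, differed by -0.39 ± 0.11 (limma adjusted p = 0.191).

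Of 14 measured genes that BLIMP-1 is known to repress, limma called 1 lower and 0 higher, and the median was -0.07. At an unadjusted p under 0.05, 4 were lower and 0 higher. The called gene was SPIB, an Ets factor that also binds DNA beside IRF4. It read 9.62, 9.63 and 9.74 with DMSO and 8.72 and 8.63 with LY294002, a change of -0.98 ± 0.05 (limma adjusted p = 0.0168). In the 5 fits without 1 array it was -1.03 to -0.94 and did not pass (limma adjusted p from 0.0697 to 0.132). The MYC gene, also a BLIMP-1 target and named after its values were seen, differed by 0.0018 ± 0.09 (limma adjusted p = 0.999). Limma called 0 of the 9 germinal centre genes measured, with 2 lower at an unadjusted p under 0.05 and a median of -0.07. MYBL2, a Myb factor of cycling cells, differed by -0.52 ± 0.11 (limma adjusted p = 0.123) and EZH2, the Polycomb methyltransferase, by -0.34 ± 0.10 (limma adjusted p = 0.211).

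Genes that BCL6 is known to repress went both ways: 0 of 19 were called by limma, 8 had an unadjusted p under 0.05 (4 higher, 4 lower), and the median was -0.04. CDKN1B, which encodes the CDK inhibitor p27, differed by 1.21 ± 0.30, with DMSO arrays from 5.47 to 6.06 and treated arrays of 7.31 and 6.55 (limma adjusted p = 0.157). TNFRSF8, the gene of CD30, differed by -0.68 ± 0.17 (limma adjusted p = 0.157). Among 16 corepressors and relatives of BCL6, limma called 0, with 4 unadjusted (3 higher, 1 lower) and a median of 0.03. The largest differences were those of CTBP1, a corepressor of BCL6, at 0.39 ± 0.12 (limma adjusted p = 0.218), and the BTB zinc finger gene ZBTB18, at 0.30 ± 0.18 (limma adjusted p = 0.443), whose groups overlapped.

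In the family and partners of IRF4, SPIB was the 1 of 21 genes that limma called, and the median was 0. At an unadjusted p under 0.05 there were 9 (4 higher, 5 lower), against 17.1% of all genes. The NF-kB list held subunits, which induce IRF4 in B cells, together with inhibitors, kinases and adaptors of the pathway. Its 14 measured genes had a median of 0.11, with 12 above 0, the inhibitor gene NFKBIA among them, against 44.1% of all genes. Limma called 0 of the 14, and 5 were higher and 0 lower at an unadjusted p under 0.05, against 17.1% of all genes in either direction. Both treated arrays lay above all DMSO arrays for 5 of the 14 and below them for 2, against 16.2% and 13.4% of all genes. NFKB2, a subunit of the alternative pathway, was 0.74 ± 0.13 higher (limma adjusted p = 0.0876), and the inhibitor gene NFKBIA 0.75 ± 0.22 (limma adjusted p = 0.206).

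The list around ELL2 held elongation factors, their regulators and RNA-processing factors. Limma called 1 of its 14 measured genes higher and 0 lower, with a median of 0.05. At an unadjusted p under 0.05, 5 were higher and 0 lower. HEXIM1, an inhibitor of the elongation kinase P-TEFb, rose by 1.49 ± 0.12 (limma adjusted p = 0.0315). Its call was lost in each of the 5 fits without 1 array (1.37 to 1.60, limma adjusted p from 0.0716 to 0.173) and with array weights (1.52, limma adjusted p = 0.0559). Both treated arrays lay above all DMSO arrays for 8 of these 14 genes and below them for 0, against 16.2% and 13.4% of all genes. Some other lists had such counts mostly downward. They were 6 lower and 0 higher of 14 genes that BLIMP-1 represses, and 4 lower and 0 higher of 9 germinal centre genes. For 21 plasma cell genes they were 7 lower and 2 higher, and for 11 Hodgkin and B-lineage markers 6 lower and 1 higher. Upward counts prevailed in others, with 5 higher and 1 lower of 14 syndecan and CD38-related genes. For 10 unfolded protein response genes they were 4 higher and 1 lower, and for 16 BCL6 corepressors and relatives 3 higher and 1 lower. The 19 genes that BCL6 represses had 5 higher and 4 lower, and the 21 of the IRF4 family and partners 5 and 5. The differences in share were not tested. Limma called 0 of 12 PRDM family genes and BLIMP-1 cofactors, with 3 unadjusted and a median of -0.01; PRDM13 differed by -0.36 ± 0.08 (limma adjusted p = 0.127) and PRDM2, a histone methyltransferase, by 0.32 ± 0.05 (limma adjusted p = 0.0835). Among 14 syndecan, heparan sulfate and CD38-related genes, limma called 0, with 4 unadjusted and a median of 0.0047. EXT1, an enzyme that builds heparan sulfate, differed by 0.42 ± 0.08 (limma adjusted p = 0.101) and SDCBP, which binds syndecan tails, by 0.32 ± 0.08 (limma adjusted p = 0.145).

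**Figure D4:**
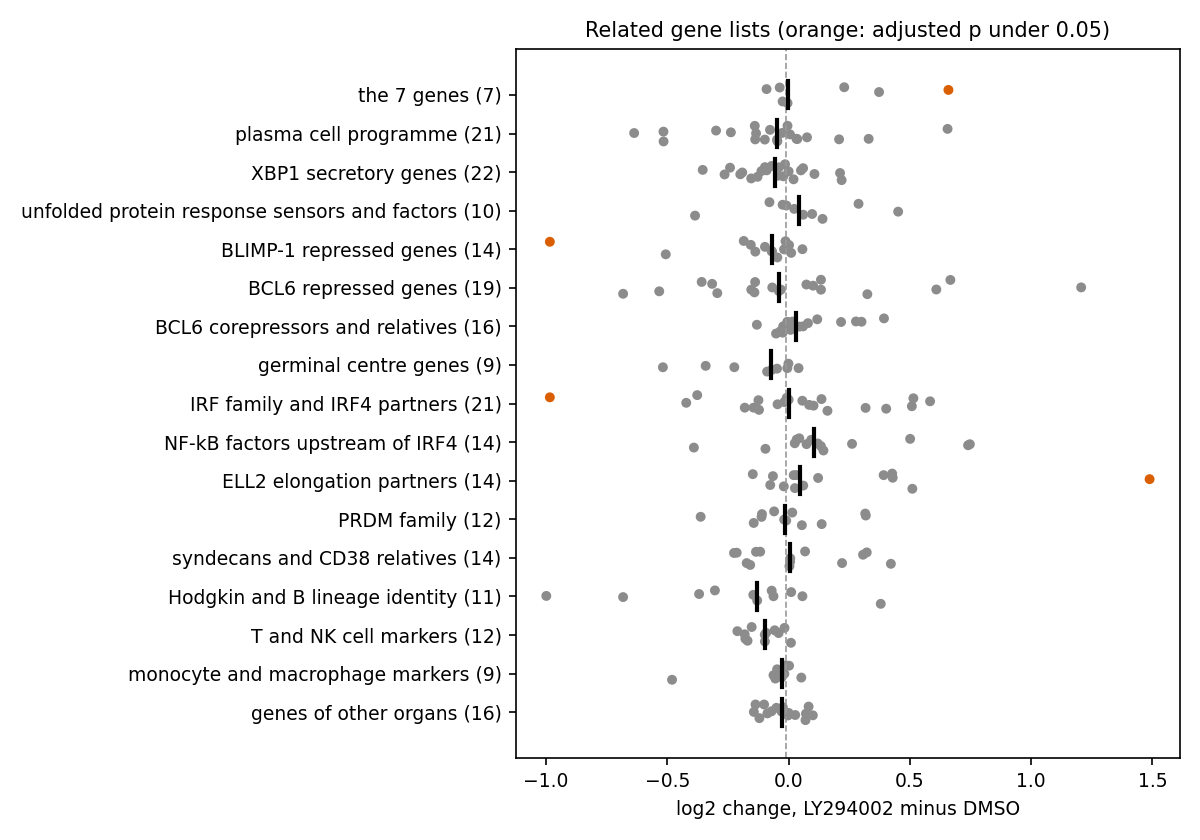
Log2 change, LY294002 minus DMSO, of every measured gene in each list (number of genes in brackets); black bars are list medians, the dashed line is the median of all genes (-0.01), and vertical scatter within a row has no meaning. The orange points, past an adjusted p of 0.05, are IRF4, SPIB (in 2 lists) and HEXIM1.

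Marker genes were read beside these results. The 11 measured markers of Hodgkin and B-lineage cells had DMSO means from 5.18 (CD79B, of the B-cell receptor) to 11.9 (CD74, the invariant chain gene), with MS4A1 (CD20) at 10.4 and TNFRSF8 at 8.23. CD79B, CD79A (6.05), the chemokine gene CCL17 (6.40) and FUT4 (7.05) were the dimmest, so these probe sets alone do not show that those markers are expressed. CD74, CD79A, CD79B, CCL17 and FUT4 were named after their values were seen. The same limit holds for BCL6, XBP1, CD38, SDC1 and ELL2. Their DMSO means (6.42, 6.97, 6.77, 4.52 and 6.46) were below that of FUT4. Limma called 0 of the 11, with 3 unadjusted and a median of -0.13; MS4A1 differed by -0.999 ± 0.15 (limma adjusted p = 0.073). For 12 T and NK cell markers the mean log2 level was 6.74 on every DMSO array and 6.59 to 6.68 on the treated arrays, and for 9 monocyte and macrophage markers 5.14 to 5.19 and 5.05 to 5.12. Their linear values summed to 1959 to 2038 with DMSO and 1771 to 1850 with LY294002 for T and NK cells, and to 340 to 362 and 317 to 333 for monocytes and macrophages. Limma called 0 in both lists, with 1 unadjusted in each; the largest differences were CD4 (-0.21 ± 0.06, limma adjusted p = 0.178), CD3E (-0.18 ± 0.07, limma adjusted p = 0.303), ITGAM (-0.48 ± 0.17, limma adjusted p = 0.261) and CD14 (-0.06 ± 0.04, limma adjusted p = 0.473). None of these markers was at 0, but a value above 0 on this scale does not show expression. CPA1 and TTR are genes of other organs, named after their values were seen. Their DMSO means were 3.94 and 7.67, against 7.34 for PRDM1. The median log2 change was -0.10 for the T and NK cell list, with 11 of 12 below 0, and -0.03 for the monocyte and macrophage list, where the 8 genes other than ITGAM averaged -0.02. The labels name KM-H2 alone, an established line, so these lists are not read as shares of other cell types. Whether their values come from the line or from background of the probe sets was not tested. Among genes of liver, muscle, pancreas, brain, skin and thyroid limma called 0 of 16, and 0 had an unadjusted p under 0.05; GFAP differed by -0.14 ± 0.10 (limma adjusted p = 0.468) and TG by -0.14 ± 0.07 (limma adjusted p = 0.413).

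The settings of the fit mattered more for the side of the threshold than for the size of the change. IRF4 was between 0.59 and 0.72 higher, and BCL6 between 0.32 and 0.43, over all the alternatives run. The upper quartile of LY294002 replicate 1 was 7.69, against 7.59 to 7.62 on the other arrays, and without that array IRF4 was 0.64 higher and BCL6 0.32.

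**Figure D5:**
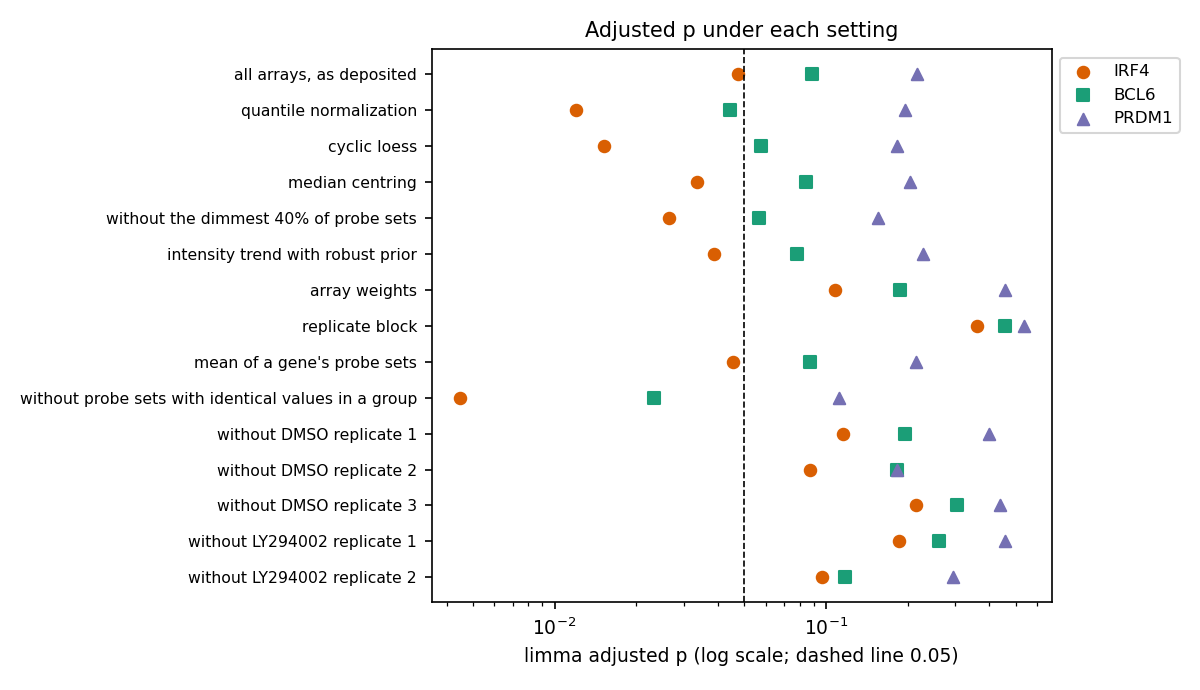
Limma adjusted p of IRF4, BCL6 and PRDM1 (log axis) under each setting of the fit, with a dashed line at 0.05. IRF4 lies left of the line in 8 of the 15 fits, BCL6 in 2, and PRDM1 in 0.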

How the data were processed

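Biotin-labelled cRNA from total RNA of 5 samples was hybridised to Affymetrix arrays, per the labels' protocols. The authors deposited log2 probe set values, and the submitters' processing notes name affy, an R package; its version, background correction and summary method are not known from these sources. The submitters' design text says that 1 array of planned triplicates was left out for high background. The values were used as deposited; array medians lay between 6.26 and 6.29. For arrays, their number limits the precision.

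Of 8793 probe sets, 47 controls were left out and 8746 fitted with limma 3.58.1 (lmFit and eBayes, R 4.3.3; 3 residual degrees of freedom). The model held the treatment group alone, and p-values were adjusted by Benjamini-Hochberg with a threshold of 0.05. The platform annotation gave 1 symbol for 7840 probe sets, several for 388 and none for 518; the brightest probe set stood for a gene. IRF4, PRDM1 and CD38 have probe sets of the kind that can bind several transcripts. The procedure was tried on simulated data with planted changes and normally distributed noise. Those data lacked the repeated values of the real ones, so the trial does not show how repeats affect the p-values. The 7 genes and the lists were chosen with earlier results of these data known. The genes named are the 7, in each list those past the threshold (at most 4) or else the 2 with the largest difference, and the 3 nearest profiles of IRF4, BCL6 and PRDM1; any other gene is marked as picked once its values were known. Alternatives were other scalings, filters, priors, weights per array, a replicate block, and fits lacking 1 array each. Plots were made in Python 3.11.15 (matplotlib 3.10.9).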

Additional observations from a re-analysis of the deposited data

How the results depend on the processing

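IRF4, BCL6, PRDM1 and XBP1 kept their direction in every setting run. SDC1 changed sign under cyclic loess (0.015), under quantile normalization (0.015) and without LY294002 replicate 1, with a range from -0.049 to 0.040 over the fits without 1 array; the cause was not tested. IRF4 no longer passed with array weights (0.64, limma adjusted p = 0.108) or in any fit without 1 array (0.62 to 0.72). BCL6 passed after quantile normalization (0.35) and without probe sets with identical values in a group (0.37), a setting that leaves out XBP1, CD38, SDC1 and ELL2. The dim filter leaves out SDC1. The number of the 7 genes past the threshold was 2 in each of the settings in which BCL6 passed, and 0 with array weights and in all fits without 1 array (0 to 0). At an unadjusted limma p under 0.05 there were 2 of the 7 with array weights, beside 1058 of all genes, and 2 or 3 without any 1 array other than LY294002 replicate 2, beside 946 to 1278 of all genes. Without LY294002 replicate 2 there were 4 (IRF4, BCL6, SDC1 and ELL2, the last 2 with identical DMSO values), beside 2085 of all genes. With the replicate number as a block, IRF4 was 0.64 higher (limma adjusted p = 0.36) and 0 of the 7 passed (2 unadjusted); over all genes the count went from 70 to 0. SPIB and HEXIM1 did not pass with the block either (limma adjusted p = 0.348 for each). The labels do not say that a number pairs arrays, and DMSO replicate 3 has no partner. A correlation of deviations cannot settle it, since those of 2 treated arrays from their own mean are mirror images. Over all genes the count ran from 0 to 4 in the fits without 1 array, and was 17 under array weights, 147 under median centring, 203 under the dim filter, 264 under cyclic loess, 299 under quantile normalization and 510 once identical values were removed. The share of calls that were higher was 67.1% as deposited, 57.5% after quantile normalization and 63.6% after cyclic loess. With 1 treated array left, that array is taken to vary like the DMSO arrays. With 3 and 2 arrays, small changes cannot be resolved, and dim probe sets such as that of SDC1 can show little fall.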
